A study of Mus musculus with 18 samples.

Results

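RNA-Seq of unsorted vehicle-treated cells was compared with RNA-Seq of the 2N and 4N cells sorted from vehicle-treated cultures, and genes whose unsorted level fell outside the range of the 2 sorted libraries were described. The comparison took all samples labelled as vehicle, 9 of the 18 in the series, with 3 for unsorted, 3 for 2N and 3 for 4N cells. ED1SQ4 is a murine lung cancer cell line derived from a tumor of a cyclin E-overexpressing transgenic mouse, and every sample is this line. Cells received vehicle for 72 hours, were stained with a fluorescent DNA dye for 1 hour, and were separated by DNA content on a cell sorter. The study calls the sorted populations diploid (2N) and polyploid (4N). A gate on DNA content alone does not tell polyploid cells from cycling cells in G2 or M phase. The other 9 samples received 0.5 µM CYC065, a CDK2/9 inhibitor, for the same time and have the same unsorted, 2N and 4N groups. The sources used here do not say whether the unsorted cells were stained. An unsorted culture holds the cells of both gates and those outside them, such as cells in S phase with an intermediate DNA content. Staining, sorting, handling time and the position of the gates therefore cannot be told apart in this comparison.

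In each condition the 3 samples carry the same library number, and over genes with whole counts they agreed within sampling noise (chi-square per degree of freedom 1.02 in unsorted, 1.00 in 2N and 1.01 in 4N cells). Over genes with fractional counts, where RSEM divided reads between similar genes, the statistic was 4.96, 5.68 and 6.89, so the spread of those genes exceeds counting error and no counting interval is given for them singly. The 3 samples were counted as 1 sample per condition, with 58885967 counts in the unsorted, 57877352 in the 2N and 60029050 in the 4N library. With 1 library per condition no *P* value is given, no difference has a replicate check across cultures, and the intervals below cover counting error only. The same statistic between summed libraries was 301 for unsorted with 2N and 385 for unsorted with 4N, against 36.6 for 2N with 4N. It grows with counts, so an abundant gene such as *Gm26917* (4411627, 1255302 and 832314 counts in unsorted, 2N and 4N) weighs heavily in it. The unsorted library stands apart from both sorted ones in composition. Counts of ribosomal RNA-like genes made up 8.80% of the unsorted library, 2.68% of the 2N and 1.73% of the 4N library. Epithelial and lung lineage markers were at or near 0: *Epcam*, *Cldn3*, *Cldn4*, *Cldn7*, *Nkx2-1* and *Sftpc* were at 0 in all 3 libraries. The 10 lung lineage markers summed to 2.79 CPM (counts scaled to a common library size) in unsorted, 2.03 in 2N and 1.83 in 4N cells, of which *Hopx*, with 120, 73 and 80 counts, was the member that passed the count filter. The 9 epithelial markers summed to 0.590 CPM in unsorted, 0.964 in 2N and 0.900 in 4N cells. The 9 mesenchymal markers summed to 4656, 5550.5 and 5474 CPM. Of other cell types, the 10 leukocyte markers summed to 13.2, 9.84 and 9.92 CPM, with *Ptprc* and *Cd3e* among those at 0. The leukocyte members that passed the count filter were *Cd14* (426, 293 and 254 counts), *Cd68* (233, 194 and 213) and *Csf1r* (96, 77 and 115). The 6 endothelial markers summed to 0.607, 1.20 and 1.87 CPM, and 1 count in all came from the 6 erythroid markers.

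Several gene programs described below respond to the state of a cell within minutes to hours. The integrated stress response raises genes of amino acid supply through the transcription factor ATF4 when amino acids or protein folding are limiting. SREBP2 raises the enzymes of cholesterol synthesis when membrane sterol falls. The serum response factor SRF and the coactivators YAP and TAZ drive genes of the actin cytoskeleton and matrix when cells are spread and under tension, and immediate early genes such as *Fos* follow growth factor and stress signals. Messenger RNA of the replication-dependent histones is made in S phase and lacks a poly(A) tail, so that total RNA libraries such as these detect it. In bulk RNA, fewer cells of a kind and less RNA per cell cannot be told apart.

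Promoter stretches are shown for the members of 3 of these programs that lay farthest from the sorted range and have an entry in RefSeq, as the members with the greatest distance: *Slc7a11* and *Ddit4* for the stress response, *Hmgcs1* and *Idi1* for cholesterol synthesis, and *Myl9* and *Ankrd1* for actin and SRF/YAP targets. Each line holds the 250 bases before the RefSeq start site (GRCm38.p6, 5′ to 3′ on the gene's strand). Capitals mark a match on either strand to the motif searched for that program, which was TGATGNAA (C/EBP-ATF response element) for the stress response, TCACNCCAC (sterol regulatory element) for cholesterol synthesis and the CArG box for SRF.
*Slc7a11*, chr3:50443614-50443863, minus strand: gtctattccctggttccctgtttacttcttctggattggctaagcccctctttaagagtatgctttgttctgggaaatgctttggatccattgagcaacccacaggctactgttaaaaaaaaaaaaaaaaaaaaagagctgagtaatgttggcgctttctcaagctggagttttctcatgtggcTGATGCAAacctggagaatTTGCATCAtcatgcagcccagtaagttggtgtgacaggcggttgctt
*Ddit4*, chr10:59951771-59952020, minus strand: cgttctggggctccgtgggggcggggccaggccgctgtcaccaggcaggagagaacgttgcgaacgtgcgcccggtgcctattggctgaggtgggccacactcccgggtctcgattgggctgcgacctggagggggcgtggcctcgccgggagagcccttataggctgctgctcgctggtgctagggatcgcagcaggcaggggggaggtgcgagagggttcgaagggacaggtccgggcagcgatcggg
*Hmgcs1*, chr13:119690101-119690350, plus strand: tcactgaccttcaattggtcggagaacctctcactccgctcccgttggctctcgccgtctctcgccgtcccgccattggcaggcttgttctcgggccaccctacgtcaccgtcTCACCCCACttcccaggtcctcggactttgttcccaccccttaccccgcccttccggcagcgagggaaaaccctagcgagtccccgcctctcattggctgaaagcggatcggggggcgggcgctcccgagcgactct
*Idi1*, chr13:8885356-8885605, plus strand: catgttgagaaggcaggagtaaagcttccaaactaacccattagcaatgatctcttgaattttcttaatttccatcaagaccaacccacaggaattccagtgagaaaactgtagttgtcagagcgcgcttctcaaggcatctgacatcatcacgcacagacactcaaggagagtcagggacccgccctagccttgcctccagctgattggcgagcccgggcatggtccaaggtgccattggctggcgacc
*Myl9*, chr2:156775214-156775463, plus strand: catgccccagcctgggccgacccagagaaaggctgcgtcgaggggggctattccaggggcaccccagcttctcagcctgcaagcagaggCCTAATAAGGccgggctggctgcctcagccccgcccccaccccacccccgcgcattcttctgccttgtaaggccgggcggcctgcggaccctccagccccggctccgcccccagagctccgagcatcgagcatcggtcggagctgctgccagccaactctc
*Ankrd1*, chr19:36119845-36120094, minus strand: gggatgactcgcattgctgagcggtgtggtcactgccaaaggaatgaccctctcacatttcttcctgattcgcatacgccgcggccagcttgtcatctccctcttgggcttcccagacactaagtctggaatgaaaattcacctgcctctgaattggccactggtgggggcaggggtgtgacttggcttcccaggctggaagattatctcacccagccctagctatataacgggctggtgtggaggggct
*Slc7a11* holds 2 matches to its motif, beginning 66 and 47 bases before the start, *Hmgcs1* holds 1 at 137 bases and *Myl9* holds 1 at 161 bases, while the letters searched for were not in the windows of *Ddit4*, *Idi1* and *Ankrd1*. In the same window of all 32851 promoter entries, the motif of the stress response was found in 3.45%, that of cholesterol synthesis in 1.05% and the CArG box in 1.47%. Among members of the 3 gene lists with an entry, 5 of 24, 1 of 16 and 4 of 22 had a match in at least 1 entry. A match is a description of the sequence and was not tested as a site.

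The distance of a gene from the sorted range was taken as the log2 ratio of its unsorted level to the nearer sorted library, on TMM-normalized CPM, and as 0 for a gene between the sorted levels. Of 11865 genes with at least 100 counts in 1 of the 3 libraries, 1698 (14.3%) lay inside the range, 5080 above it and 5087 below it. Genes over 2-fold beyond the nearer sorted library were called. A gene could pass the count filter through 1 library alone, as *Gbp7* (117, 20 and 21 counts) did through unsorted cells. *Rnu11* (15, 103 and 58 counts) did so through 2N cells. Genes of low counts thus enter more readily when 1 library is high. There were 507 called above (4.27% of those tested) and 192 called below (1.62%), and 84 and 50 lay over 4-fold beyond. The sorted libraries differed from each other by over 2-fold in 142 genes (1.20%), of which 49 were higher in 4N cells. Against 2N cells alone, 667 genes (5.62%) were over 2-fold higher and 280 (2.36%) lower in unsorted cells. Against 4N cells alone, 702 (5.92%) were higher and 280 (2.36%) lower. These comparisons share the unsorted library. The SD of the log2 ratio across genes was 0.62 for unsorted over 2N and 0.64 for unsorted over 4N, against 0.29 for 4N over 2N.

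**Figure D1:**
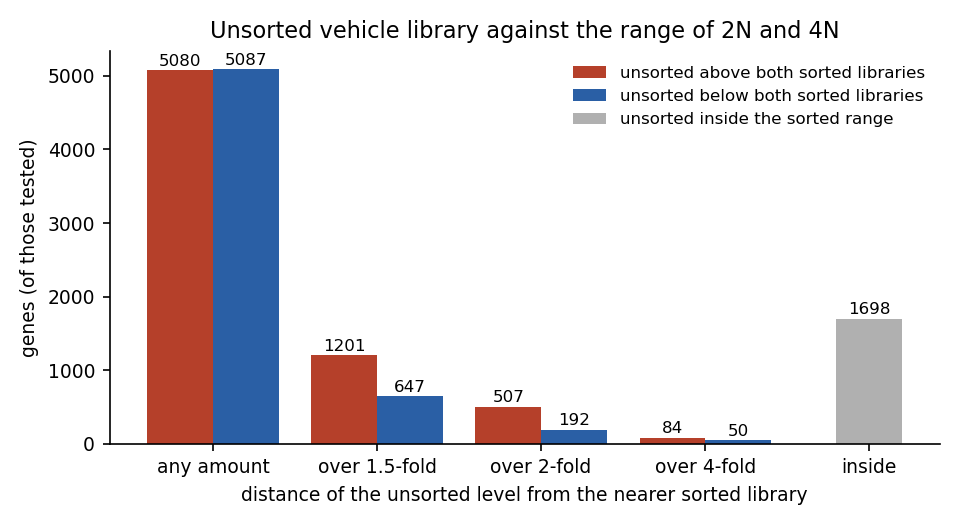
Number of genes (vertical axis) whose unsorted vehicle level lay above (red) or below (blue) both sorted vehicle libraries, by the distance from the nearer sorted library (horizontal axis), with the genes inside the sorted range in grey. Above and below are nearly equal in number at any amount (5080 and 5087), and calls above outnumber calls below at over 2-fold (507 and 192).

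The calls are a cut through a continuous range. *Adamtsl3* (25.3 CPM in unsorted, 12.6 in 2N and 11.0 in 4N cells) and *Sv2a* (8.21, 4.10 and 3.63 CPM) were the called genes nearest the threshold above, and *Itgb8* (22.5, 11.3 and 8.15 CPM) and *Nfatc4* (36.6, 18.3 and 15.1 CPM) fell just short of it. Below the range, *Cavin2* (168, 337 and 414 CPM) and *Noct* (33.0, 66.3 and 71.2 CPM) were just called, while *Fhl2* (44.0, 96.4 and 87.9 CPM) and *Gm47766* (5.83, 11.7 and 11.6 CPM) were not. Among protein-coding genes, 7.63% of those in the lowest of 4 equal bins by summed counts and 1.35% of those in the highest bin were called above. The gene lists below held 113 of the 507 genes called above and 53 of the 192 called below.

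**Figure D2:**
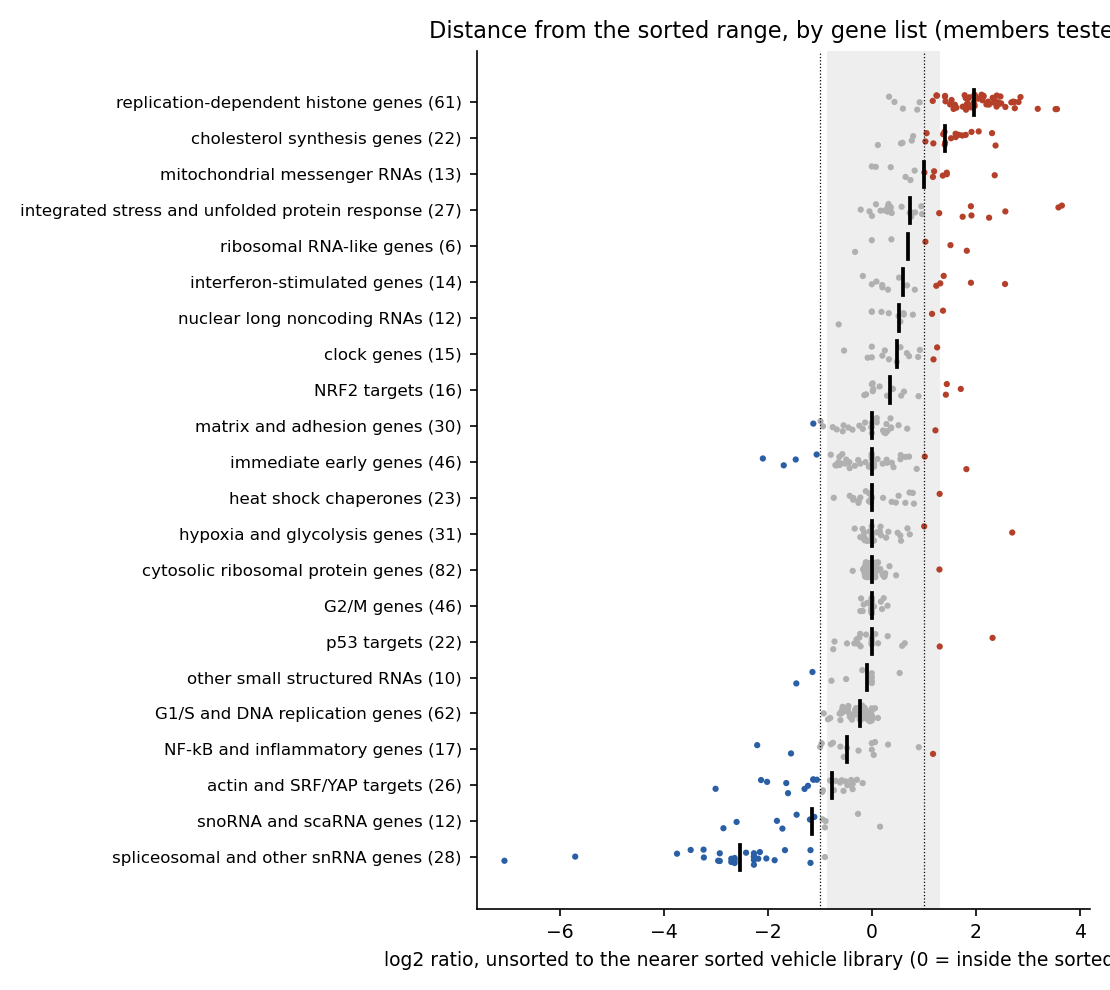
Distance of each tested member (point) from the sorted range, as the log2 ratio of the unsorted level to the nearer sorted vehicle library, by gene list, with the number of members tested in brackets. Black bars are list medians, dotted lines mark 2-fold, red and blue points are called above and below, and the grey band holds the central 95% of all genes tested. Histone and cholesterol genes lie to the right, and snRNA, snoRNA and actin genes to the left.

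Genes of the integrated stress and unfolded protein response lay above both sorted libraries in 25 of 27 tested members, and 8 were called above and 0 below. Of all genes tested, 42.8% lay above by any amount, 4.27% were called above and 1.62% below. The median distance of the list was 0.73, beside 0.00 over all genes. The member farthest out was *Slc7a11*, the transporter subunit that imports cystine in exchange for glutamate. Its counts in the 3 samples were 1025, 1006 and 1065 in unsorted, 73, 65 and 69 in 2N, and 85, 91 and 85 in 4N cells. The counts of both sorted libraries were far lower, and the unsorted level was 12.6-fold above the nearer library (log2 3.65, 95% counting interval 3.47 to 3.84). *Ddit4*, an inhibitor of mTORC1, had 1053, 1005 and 1016 counts in unsorted, 89, 93 and 76 in 2N, and 75, 71 and 68 in 4N samples (log2 3.59, 3.40 to 3.78). *Chac1*, which degrades glutathione, stood at 42.1 CPM in unsorted, 6.25 in 2N and 7.10 in 4N cells (log2 2.57, 2.42 to 2.72). *Trib3*, a pseudokinase induced by ATF4, stood at 54.9, 11.5 and 10.6 CPM (log2 2.25, 2.13 to 2.38). The sorted libraries were close to each other in these 4 genes, and the unsorted library alone was high.

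The other called members were *Sesn2*, an amino acid sensor that restrains mTORC1 (25.8, 6.83 and 6.32 CPM), *Aldh1l2* of mitochondrial folate metabolism (126, 24.7 and 33.6 CPM), *Herpud1* of protein degradation at the endoplasmic reticulum (70.9, 21.1 and 20.6 CPM) and *Xbp1*, a transcription factor of the unfolded protein response (3110 counts in unsorted, 1107 in 2N and 1343 in 4N cells). The messenger RNA of *Atf4* itself was level with the 2N library (483, 482 and 431 CPM), and *Ddit3*, which encodes CHOP, was at 14.5, 11.7 and 7.61 CPM and was not called. *Hspa5*, the chaperone BiP, was at 847, 465 and 476 CPM, short of 2-fold (log2 0.83). *Asns*, asparagine synthetase, was at 247, 143 and 147 CPM. *Phgdh* of serine synthesis (355, 334 and 336 CPM) and *Hyou1* (224, 234 and 231 CPM) stayed near the sorted levels. Outside the list, *Slc6a9*, a glycine transporter, was among the 12 leading genes above the range (42.1, 7.30 and 8.09 CPM).

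Cholesterol synthesis genes lay above both sorted libraries in 22 of 22 tested members, with 17 called above and a median distance of 1.40. Of all genes, 42.8% lay above and 4.27% were called above. Summed over the list, the level was 2989 CPM in unsorted, 880.3 in 2N and 1098 in 4N cells, or 3.40-fold over 2N and 2.72-fold over 4N. *Hmgcs1*, which makes HMG-CoA, had 4160, 4142 and 4248 counts in the unsorted samples, 564, 619 and 613 in 2N, and 821, 870 and 868 in 4N samples. These are parts of 1 library per condition, with 2N lowest and unsorted highest (log2 2.38, 2.32 to 2.44). *Idi1*, the isomerase of the isoprenoid units, stood at 203, 27.3 and 41.0 CPM (log2 2.31) with fractional counts. *Insig1*, the sterol-regulated brake on SREBP processing, had 8718 counts in unsorted, 1513 in 2N and 2226 in 4N cells. *Fdps* stood at 180, 29.3 and 47.6 CPM and *Fdft1*, squalene synthase, at 103, 21.5 and 29.5 CPM. *Srebf2*, which encodes SREBP2, was at 413, 160 and 182 CPM. *Dhcr7*, *Sc5d*, *Ebp* and *Hsd17b7* were among the members not called. The median ratio of 4N over 2N in the list was 0.32 on the log2 scale.

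**Figure D3:**
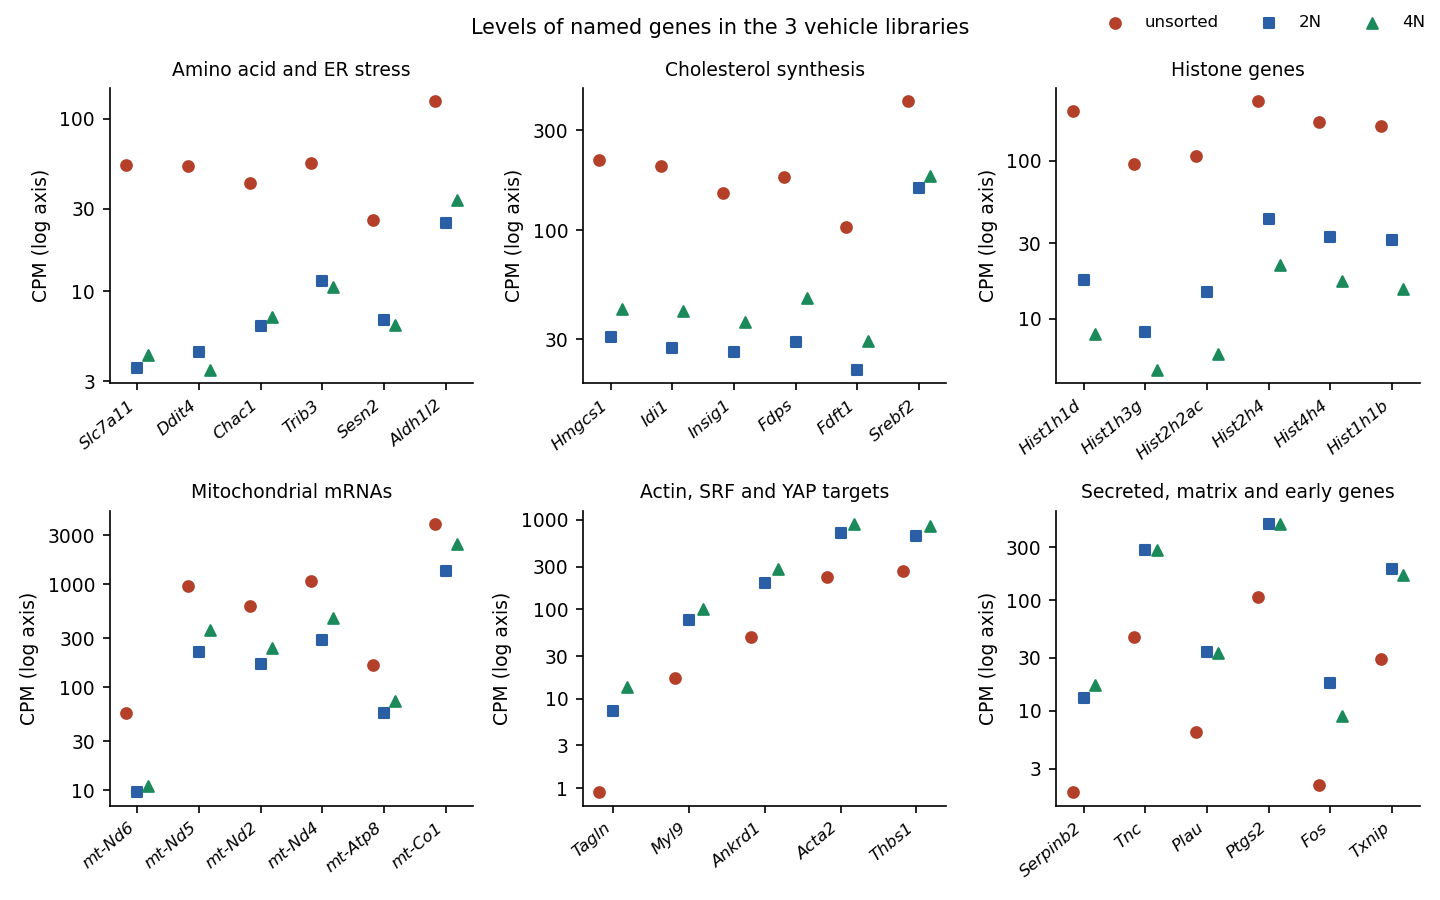
TMM-normalized CPM (vertical, log axis) of named genes in the unsorted (red circles), 2N (blue squares) and 4N (green triangles) vehicle libraries, with 1 point per library and no replicate error. In the upper row and in the mitochondrial panel the unsorted point lies above both sorted points, as in *Slc7a11* (53.7 CPM against 3.56 and 4.27), and in the panels of actin targets and of secreted, matrix and early genes it is the lowest, as in *Tnc* (46.1 against 286 and 285).

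Replication-dependent histone genes lay above both sorted libraries in all 61 tested members, and 56 were called above, beside 42.8% and 4.27% of all genes. The median distance was 1.97. Summed over the list, the level was 7887 CPM in unsorted, 2188 in 2N and 1211 in 4N cells, or 3.60-fold over 2N and 6.52-fold over 4N. The list made up 0.772% of the counts of the unsorted, 0.220% of the 2N and 0.123% of the 4N library. Because these genes are near copies and RSEM divided reads among them, 57 of the 61 members had fractional counts, and a sum over a family is firmer than a single gene. All families lay on the same side. The linker histones H1 summed to 986 CPM in unsorted, 188 in 2N and 94.9 in 4N cells, with 5 of 5 members called. H2A summed to 1756, 388 and 195 CPM (17 of 18 called), H2B to 1176, 314 and 177 CPM (15 of 15), H3 to 2231, 555 and 292 CPM (11 of 11), and H4 to 1736, 742 and 450.2 CPM (8 of 12).

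Members with whole counts gave the same order. *Hist1h1b*, a linker histone, had 3161, 3267 and 3172 counts in unsorted, 622, 599 and 612 in 2N, and 306, 329 and 312 in 4N samples (log2 2.40, 2.33 to 2.47). *Hist2h4* stood at 238, 42.5 and 21.9 CPM and *Hist4h4* at 177, 32.7 and 17.4 CPM. The 4N level was the lowest in each. *Hist1h1d* was the farthest out, at 207, 17.6 and 7.97 CPM (log2 3.56), with fractional counts. The smallest distances belonged to H4 genes, such as *Hist1h4d* (285, 211 and 147 CPM).

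Other genes of the cell cycle did not follow the histones. Of 62 tested genes of G1/S and DNA replication, 53 lay below both sorted libraries, beside 42.9% of all genes. In this list 0 were called in either direction, and the median distance was -0.23. *Prim1*, a DNA primase subunit, was lowest relative to the range at 39.3, 77.3 and 74.5 CPM. *Slbp*, which encodes the protein that binds the histone messenger RNA stem-loop, was at 68.3, 97.3 and 87.3 CPM. *Pcna* was at 314, 379 and 331 CPM. Of 46 G2/M genes, 35 lay inside the sorted range, beside 14.3% of all genes, and 0 were called. *Mki67* stood at 802 CPM in unsorted, between 613 in 2N and 829 in 4N cells, and *Top2a* at 876, 976 and 1393 CPM. The median ratio of 4N over 2N in this list was 0.62 on the log2 scale.

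Messenger RNAs of the mitochondrial genome encode subunits of the respiratory chain and ATP synthase. They lay above both sorted libraries in 12 of 13 genes, with 7 called above, beside 42.8% and 4.27% of all genes. Their median distance was 1.01. They summed to 10007 CPM in unsorted, 3224 in 2N and 5561 in 4N cells. *mt-Nd6*, the subunit gene transcribed from the light strand, was farthest out with 1050, 1092 and 1121 counts in unsorted, 195, 195 and 167 in 2N, and 237, 219 and 217 in 4N samples (log2 2.36, 2.24 to 2.48). *mt-Nd5* stood at 967, 219 and 356 CPM and *mt-Nd2* at 619.5, 167 and 241 CPM. *mt-Co2* lay inside the range at 40.9, 13.9 and 42.0 CPM. Nuclear genes of the cytosolic ribosome stayed level, with 1 of 82 called above, 0 below and a summed share of 3.07%, 3.19% and 3.16% of counts. The member called, *Rpl22l1*, was at 22.6, 8.24 and 9.18 CPM.

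RNAs of the snRNA and snoRNA classes lay on the other side. Of 28 tested genes annotated as snRNA, a class that includes the RNAs of the spliceosome, 28 lay below both sorted libraries. Of these, 27 were called below. Among all genes, 42.9% lay below and 1.62% were called below. The snRNA list was added after values were seen. The median distance was -2.53. Summed, the level was 198 CPM in unsorted, 1608 in 2N and 1147 in 4N cells, so that the 2N level was 8.14-fold and the 4N level 5.81-fold that of unsorted cells. Identical copies received equal shares of reads, and 14 of the 28 genes had the same 3 counts as another, so the family sum carries this result. *Rnu12*, the U12 RNA of the minor spliceosome, had 28 counts in unsorted, 543 in 2N and 279 in 4N cells (log2 -3.23), with fractional counts. Of 12 snoRNA and scaRNA genes tested, which guide the modification of ribosomal and spliceosomal RNA, 11 lay below and 7 were called, with a median distance of -1.15. *Snord17* had 78, 57 and 73 counts in unsorted, 806, 769 and 816 in 2N, and 532, 549 and 510 in 4N samples (log2 -2.85, -3.07 to -2.64). A scaRNA, *Gm25395*, had 73, 552 and 361 counts and was also among the 12 leading genes below the range. The Y RNAs *Rny3* (2.03, 6.78 and 5.55 CPM) and *Rny1* (1.65, 4.23 and 3.63 CPM) were the 2 members called below among 10 other small RNAs, of which 0 were called above. The median distance of that list was -0.09. *Rn7s1*, *Rn7s2*, *Rprl3* and *Rpph1* lay inside the sorted range and *Terc*, the RNA of telomerase, lay above it (log2 0.53). *Rn7sk* (log2 -0.18) and both entries of *Rmrp* (-0.49 and -0.78) lay below it and were not called.

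**Figure D4:**
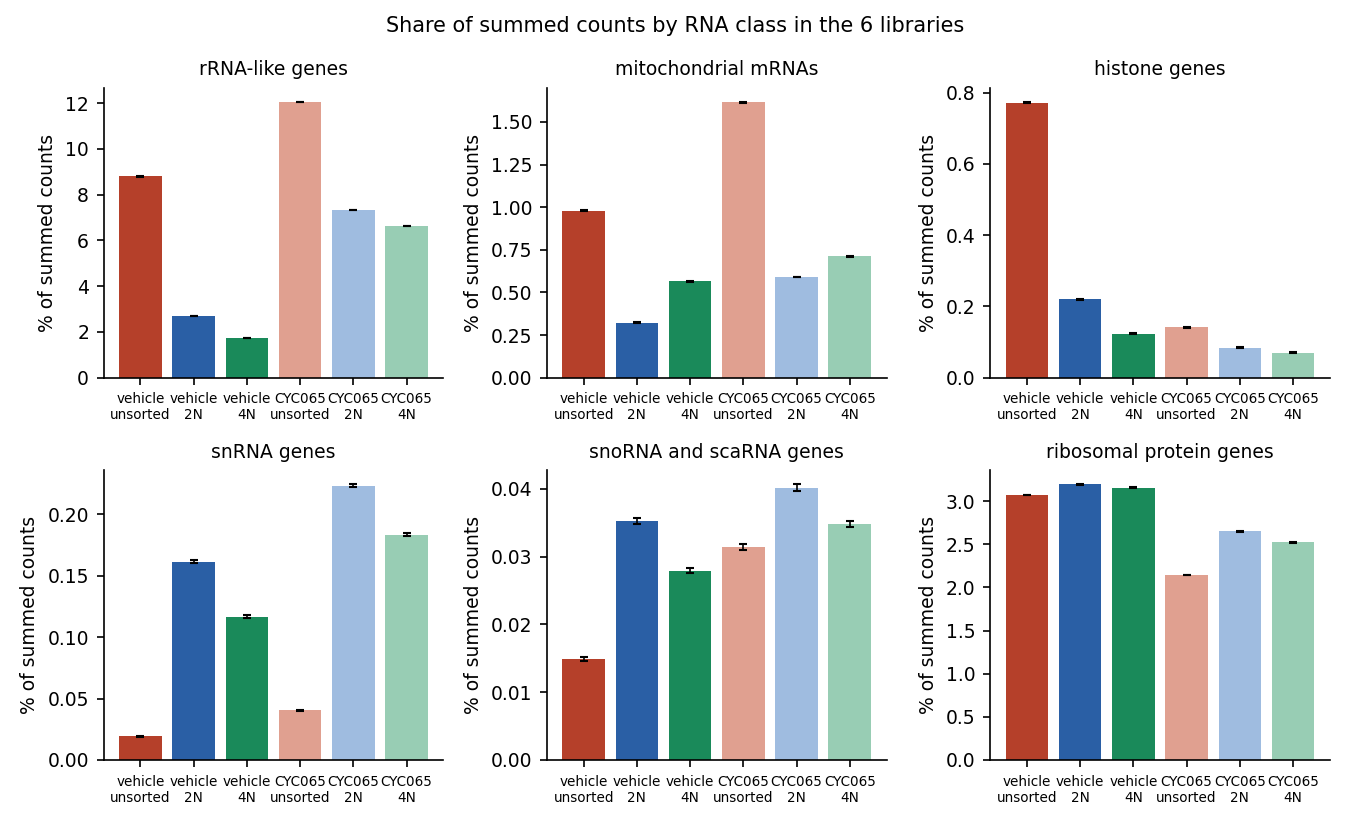
Share of summed counts (vertical axis, %) held by 6 RNA classes in the 6 libraries of the series, with exact binomial 95% intervals that cover counting error only and are too narrow for classes with fractional counts. Within vehicle, unsorted cells are higher than both sorted populations in ribosomal RNA-like genes (8.80% against 2.68% and 1.73%), mitochondrial messenger RNAs and histone genes, and lower in snRNA and snoRNA genes.

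Among ribosomal RNA-like genes, 3 of 6 were called above, beside 4.27% of all genes. *Gm26917* led with 4411627 counts in unsorted, 1255302 in 2N and 832314 in 4N cells. *Gm42418* held 1.24%, 0.448% and 0.292%. Not called were *mt-Rnr1* (437, 337 and 292 CPM), *Lars2*, which lay inside the sorted range, and *mt-Rnr2*, which lay below it (146, 221 and 182 CPM). The list was taken as a measure of what remained after ribosomal RNA was depleted from total RNA. *Gm26917*, *Gm42418*, *CT010467.1* (28.5, 14.0 and 9.09 CPM) and *mt-Rnr1* were highest in unsorted and lowest in 4N cells. *Lars2* and *mt-Rnr2* were highest in 2N cells and did not follow them. The part of these genes in the other differences was not tested. With the mitochondrial, histone, small RNA and ribosomal RNA-like genes left out of the normalization, the counts of genes called above and below were again 507 and 192. The scaling itself barely moved, with a median log2 ratio of unsorted over 2N of 0.0014 in place of 0.0018. Equal counts therefore do not show what part these classes had. The list named nuclear long noncoding RNAs also holds host genes of snoRNAs. Of its 12 tested members, the hosts *Gas5* (130, 48.9 and 50.4 CPM) and *Snhg6* (383, 128 and 182 counts) were called above and 0 were called below. *Malat1* lay below both sorted libraries (2793, 5174 and 4342 CPM, log2 -0.64), and with it the list summed to 3664 CPM in unsorted, 5726 in 2N and 4777 in 4N cells, while the median distance over members was 0.53.

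Actin and SRF/YAP targets lay below both sorted libraries in 26 of 26 tested members, with 10 called below and a median distance of -0.77. Of all genes, 42.9% lay below and 1.62% were called below. Summed over the list, the level was 21996 CPM in unsorted, 32552 in 2N and 35990.4 in 4N cells. *Tagln*, transgelin, had 14, 20 and 18 counts in unsorted, 127, 159 and 134 in 2N, and 271, 284 and 272 in 4N samples (log2 -3.00, -3.45 to -2.58). *Myl9*, the regulatory light chain of myosin, had 351, 335 and 309 counts in unsorted, 1422, 1453 and 1511 in 2N, and 2143, 2096 and 1960 in 4N samples (log2 -2.13, -2.23 to -2.03). *Ankrd1*, a target of YAP, was at 49.1, 198 and 279.9 CPM (log2 -2.01, -2.07 to -1.95). The 3 genes had the same order of unsorted, 2N and 4N from lowest to highest. *Acta2*, smooth muscle actin, was at 229.9, 718 and 902 CPM, and *Thbs1*, thrombospondin, at 272, 666 and 854 CPM. *Zyx*, *Cnn1*, *Cnn2* and *F3* were also called. *Actb* (log2 -0.54) and *Flna* (-0.37) were below the range and not called.

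Of 46 immediate early genes, 4 were called below and 2 above, beside 1.62% and 4.27% of all genes, and the median distance was 0.00. The count above is near that background. *Fos* had 36, 44 and 42 counts in unsorted, 332, 348 and 361 in 2N, and 181, 194 and 177 in 4N samples (log2 -2.09, -2.39 to -1.81). *Hbegf*, a growth factor of the EGF family, was at 30.9, 112 and 99.8 CPM, *Ccn1*, a matrix protein that YAP also controls, at 43.7, 120.4 and 148 CPM, and *Btg2* at 4.89, 18.7 and 10.2 CPM. *Gadd45a* (13.3, 3.51 and 3.77 CPM) and *Socs3* (45.8, 22.6 and 17.1 CPM) were called above. *Jun* (120, 130 and 92.6 CPM), *Junb* (176, 185 and 152 CPM) and *Egr1* (113, 125 and 68.5 CPM) lay inside the sorted range, as did *Atf3*. Of 23 heat shock chaperones, 1 was called above, *Hspa1b* at 11.9, 4.84 and 4.03 CPM with fractional counts, and 0 were called below. *Hsp90ab1* (log2 -0.12) and *Hspa8* (-0.05) differed little from the nearer sorted library.

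Further genes stood among the 12 leading ones below the range. *Ptgs2*, cyclooxygenase 2, had 2061, 2014 and 2040 counts in unsorted, 9489, 9476 and 9421 in 2N, and 10007, 9998 and 9831 in 4N samples (95% counting interval of the log2 distance -2.24 to -2.16). *Tnc*, the matrix protein tenascin C, was at 46.1, 286 and 285 CPM (log2 -2.63, -2.69 to -2.57), and *Plau*, urokinase, at 6.38, 34.3 and 33.5 CPM. The 2N and 4N levels of these 3 genes were nearly equal. *Serpinb2*, an inhibitor of urokinase, was at 1.84, 13.0 and 17.2 CPM and *Ppbp*, a chemokine, had 11 counts in unsorted, 126 in 2N and 337 in 4N cells. *Txnip*, the inhibitor of thioredoxin that follows glucose supply, had 610, 561 and 512 counts in unsorted, 3688, 3701 and 3665 in 2N, and 3423, 3392 and 3534 in 4N samples (log2 -2.54, -2.61 to -2.46). The other leading genes below were *Avil*, an actin-binding protein (0.503, 3.05 and 7.33 CPM), and the long noncoding RNA *2010300F17Rik* (0.798, 4.49 and 5.53 CPM). In the NF-kB and inflammatory list, 17 genes were tested and the median distance was -0.48. *Ptgs2* and *Traf1* (2.43, 7.12 and 7.81 CPM) were called below and *Ccl7* (8.52, 3.77 and 3.32 CPM) above. Of all genes, 1.62% were called below and 4.27% above, and the count above in the list is near that background. *Csf1* was at 573, 988 and 1086 CPM and *Nfkbia*, the inhibitor that NF-kB induces, lay inside the range at 34.3, 34.5 and 30.2 CPM.

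The other leading genes above the range were *Aldh1l1*, the cytosolic relative of *Aldh1l2* (6.70, 0.568 and 0.851 CPM), *Plin4*, a protein of lipid droplets (7.37, 0.964 and 0.949 CPM), *Ptn*, the growth factor pleiotrophin (27.5, 4.94 and 4.13 CPM), and *Abca8b*, a membrane transporter (6.42, 1.12 and 1.24 CPM). *Plin4* had 134, 146 and 145 counts in unsorted, 19, 13 and 24 in 2N, and 18, 27 and 13 in 4N samples, so its fold of 7.65 has a counting interval of 2.53 to 3.36 on the log2 scale. Each of these 4 genes was low in both sorted libraries.

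Further lists are given beside the 4.27% of all genes called above and the 1.62% called below. NRF2 targets of the antioxidant response had 3 of 16 called above and 0 below, with *Nqo1* at 24.4, 5.21 and 7.45 CPM, *Hmox1*, heme oxygenase 1, at 52.2, 19.1 and 19.5 CPM and *Osgin1* at 10.8, 3.61 and 3.96 CPM. Interferon-stimulated genes had 5 of 14 called above and 0 below, among them *Stat2* (11.9, 3.82 and 4.58 CPM) and *Oasl2* (4.06, 1.08 and 1.01 CPM). *Oasl2* (234, 63 and 62 counts) and *Gbp7* (117, 20 and 21 counts) passed the count filter through unsorted cells alone. Of p53 targets, *Trp53inp1* (7.30, 1.46 and 1.33 CPM) and *Bbc3*, which encodes PUMA (5.26, 2.12 and 2.13 CPM), were called above among 22 tested, and 0 were called below. Clock genes had 2 of 15 called above, *Per2* (1153, 487 and 372 counts) and *Ciart*, and 0 below. Of 31 hypoxia and glycolysis genes, *Car9*, on 103, 16 and 11 counts, and *Ndrg1* (158, 75.6 and 78.4 CPM) were called above and 0 below. *Pgk1* lay inside the range. Matrix and adhesion genes had 1 of 30 called above (*Itgb4*, 2.81, 1.20 and 1.19 CPM) and 1 below (*Lama3*, 1.32, 2.87 and 3.06 CPM). Of the mesenchymal markers, *Lum* was called below (1.25, 5.39 and 3.01 CPM) and *Vim* had a log2 distance of -0.35.

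The 3 CYC065 libraries gave the same measure in cells that the calls did not use, with unsorted, 2N and 4N cells after 72 hours of drug. Of the 507 genes called above in vehicle, 469 passed the count filter there and 67 were again over 2-fold above both sorted libraries, which is 14.3% beside 1.02% of all genes tested in both treatments. With library size scaling alone there were 39 in place of 67. Another 2 were over 2-fold below. Of the 192 genes called below in vehicle, 155 passed the filter and 59 were again below, which is 38.1% beside 0.976% of all genes, and 2 were over 2-fold above. In any amount, 373 of the 469 lay above and 123 of the 155 below. Of all 11573 genes tested in both treatments, 4654 lay above and 4907 below. With CYC065 the median distance was 0.43 for the genes called above and -0.60 for those called below. The vehicle distances chose these genes, so a smaller distance in other libraries follows from the choice in part. The 67 included 23 histone genes and the 7 mitochondrial genes called in vehicle. Of 21 snRNA genes over 2-fold below with CYC065, all but *Gm25360* were among the 59. Genes that share reads were counted singly, so 14.3% and 38.1% are not shares of independent genes.

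**Figure D5:**
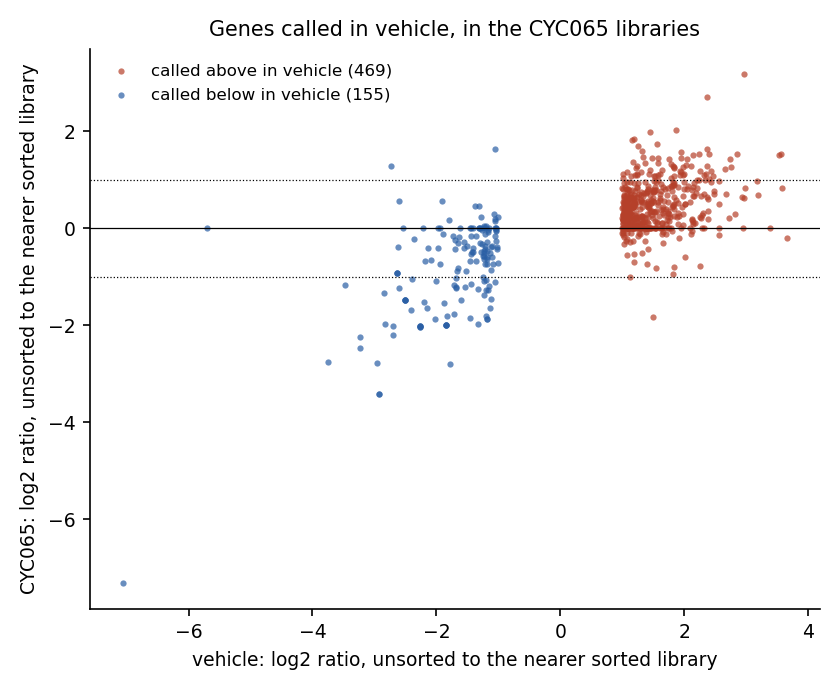
For genes called above (red, 469) or below (blue, 155) in vehicle and tested with CYC065, the log2 ratio of the unsorted to the nearer sorted library in vehicle (horizontal) and in CYC065-treated cells (vertical), with dotted lines at 2-fold. Most red points lie above 0 (373) and most blue points below it (123), and 67 and 59 lie past 2-fold in the same direction. Of all 11573 genes tested in both treatments, 4654 lay above 0 and 4907 below it with CYC065.

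The programs differed in how far they held. Mitochondrial messenger RNAs lay above both sorted libraries in 13 of 13 genes with CYC065, with 11 called and a median distance of 1.33. *mt-Nd6* was at 78.5 CPM in unsorted, 11.0 in 2N and 12.1 in 4N cells. Histone genes lay above in 58 of 59, with 23 called and a median of 0.89, although their share of counts after CYC065 was 0.141% in unsorted, 0.0842% in 2N and 0.0707% in 4N cells. The snRNA genes lay below in 26 of 27, with 21 called. *Ptgs2* (135, 452 and 392 CPM) and *Ankrd1* (30.1, 64.4 and 71.8 CPM) were over 2-fold below both sorted libraries again. Of 25 actin and SRF/YAP targets, 19 lay below and 3 were called.

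The stress and sterol genes were not called with CYC065. Cholesterol synthesis genes lay above in 22 of 22, with 0 called and a median distance of 0.34. *Hmgcs1* was at 174, 152 and 114 CPM. Genes of the integrated stress response lay above in 10 of 27 and below in 13, with 0 called and a median of 0.00. *Slc7a11* was at 24.1 CPM in unsorted, 32.2 in 2N and 27.9 in 4N cells, and *Trib3* at 25.2, 44.2 and 43.3 CPM, so both lay below the sorted levels, where in vehicle they lay above. *Ddit4* (106, 60.3 and 46.1 CPM) kept its direction and fell short of 2-fold. *Txnip* lay inside the sorted range (102, 115 and 85.0 CPM). *Tnc* was at 74.5, 103 and 97.1 CPM. The differences between the treatments rest on 1 library each and were not tested.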

How the data were processed

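RNA was measured in ED1SQ4 cells treated with vehicle or CYC065. Per the labels and the methods of the study, the authors sorted cells after DyeCycle Green staining, prepared stranded ribosomal RNA-depleted total RNA libraries, demultiplexed with bcl2fastq, trimmed with cutadapt 1.18, aligned to mm10 with STAR 2.7.0f and estimated expected counts for GENCODE M21 genes with RSEM. The sources disagree on the versions of RSEM and bcl2fastq. The deposited values are these expected counts, not normalized. Fractional values, where reads are shared between similar genes, occurred in 8.28% of genes in the vehicle samples.

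Counts were summed over the 3 samples of a condition, rounded, and scaled with TMM over the 3 libraries of a treatment (edgeR 4.0.16, R 4.3.3). Summaries used Python 3.11.15, pandas 2.3.3, NumPy 2.4.6 and SciPy 1.17.1, and figures matplotlib 3.10.9. Genes needed at least 100 summed counts in 1 library, counts under 3 were raised to 3, and genes over 2-fold beyond both sorted libraries were called, with exact binomial 95% intervals of the ratio. The planned rule was to sum the samples if their chi-square per degree of freedom over whole-count genes was under 1.5. Column totals ran from 19290800 to 20014285 in vehicle.

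Named genes were the 12 farthest from the range in each direction with at least 300 counts and whole counts, up to 6 called members and the 2 with the highest counts of each list, and the genes nearest the threshold. Other list members, among them *Atf4*, *Ddit3*, *Jun* and *Prim1*, were named after their values were seen. The comparison and the lists were chosen with earlier results of these data known. All 55450 rows matched GENCODE M21 by identifier and symbol. Promoters are from RefSeq. The calls were checked on simulated data. Alternatives were other scalings, count filters, floors and thresholds, whole counts only, leaving out each replicate, edgeR and DESeq2 1.42.0 on the 9 samples, and an assumed spread between cultures. Results for some genes are not reported here.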

Additional observations from a re-analysis of the deposited data

Results flagged for a closer look

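In 4 genes the unsorted library lay over 2-fold beyond the sorted range in opposite directions in the 2 treatments. The difference was not tested, since each condition has 1 library. *Postn*, periostin, had 705 counts in unsorted, 2933 in 2N and 1554 in 4N vehicle cells (log2 distance -1.06), and 13357, 4595 and 2208 counts with CYC065 (1.64). *Rab39b*, a small GTPase, had 183, 34 and 69 counts in vehicle (1.49), and 18, 69 and 107 with CYC065 (-1.84). *Igf2*, an insulin-like growth factor, had 12, 80 and 110 counts in vehicle (-2.73), and 576, 253 and 210 with CYC065 (1.29). *Gm10705*, a processed pseudogene, had 165, 17 and 80 counts in vehicle (1.13), and 40, 142 and 102 with CYC065 (-1.02). Counts of *Igf2* and *Gm10705* were fractional.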

How the results depend on the processing

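Counts below are given in the order above both sorted libraries, below both, higher and lower than 2N, and higher and lower than 4N, beside the main 507, 192, 667, 280, 702 and 280. A filter of 30 counts gave 816, 303, 1086, 451, 1301 and 459, a filter of 300 gave 341, 122, 440, 184, 430 and 180, and no filter gave 1515, 509, 2122, 917, 2439 and 961. A 1.5-fold threshold gave 1201, 647, 1550, 927, 1574 and 876, and a 4-fold threshold 84, 50, 127, 70, 159 and 74. With the counting interval wholly beyond 2-fold there were 326, 132, 438, 186, 469 and 194. With an assumed coefficient of variation of 0.2 between cultures, edgeR called 277, 108, 369, 146, 417 and 166. The cause of these moves lies in the alternative's own construction. Library size scaling gave 457 above and 215 below and whole counts only 374 and 135, within 1.5 times. Tests that take the 3 parts of a library as replicates see counting noise only and say nothing of stability across cultures. Among them, edgeR on the 9 samples called 502 and 187 and DESeq2 497 and 176. Leaving out each replicate removes a part of each library's reads and gave 501 to 510 above and 195 to 201 below, which is no sign of stability either. Genes called in both treatments numbered 67 above and 59 below. They became 39 above with library size scaling, 131 and 97 with a filter of 30 counts, 33 below with 300 counts, and 253 and 151 with no filter.

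The samples share replicate numbers, but same-numbered samples did not deviate together (correlations of deviations -0.188 to 0.102), so the numbers pair nothing. With the replicate block, edgeR called 502 above and 185 below. With library size scaling, 3 list medians at or near 0 went below it, for matrix and adhesion genes from 0.00 to -0.0139, for heat shock chaperones from 0.00 to -0.0427 and for ribosomal protein genes from 0.00 to -0.0011. Ratios under alternatives were computed for the 24 leading genes only, where 143 values stayed inside their counting interval, and *Txnip* moved to -2.45 without replicate 3. Depth limits genes near 100 counts, and spread between cultures was not measured.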

Other observations

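Noncoding classes of the annotation differed in their calls. Transcripts of the annotation class TEC, whose existence awaits experimental evidence, were called above in 53 of 216 and below in 0, with a median distance of 0.44. Sense intronic transcripts were called above in 5 of 28, and lincRNAs in 21 of 128 above and 8 below, beside 397 above and 127 below among 10958 protein-coding genes. By the annotation's own type, 20 of 31 snoRNAs were called below. Among protein-coding genes, 5.40% of those in the shortest of 4 equal bins by exon length and 2.52% of those in the longest were called above. The middle bins had 3.32% and 3.25%. The short histone genes, 56 of which were called above, were not left out of these bins. The shares without them were not computed.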
